A study of Mus musculus with 6 samples.

Results

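Retinal ganglion cells are the projection neurons of the retina, and 6 transcription factors of their birth and identity, Atoh7, Pou4f1, Pou4f2, Isl1, Ebf1 and Ebf3, were followed in the retinas of mouse pups at postnatal day 4 (P4). Members were taken by gene symbol, with probe sets of any suffix, and not by their signals. Of the 6 genes, 4 had a listed probe set: Atoh7 and Isl1 had 2 each, and Ebf1 and Ebf3 had 3 each. These make 10 of 22626 probe sets, which together name 12393 genes. No listed probe set carried the symbol Pou4f1 or Pou4f2, so both were not analysed here.

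Retinal RNA came from 3 Nhlh2 knockout mice and 3 wildtype mice, all at P4 and on a mixed C57/129 background, with 1 mouse per Affymetrix mouse GeneChip array. Mice with the same replicate number were littermates, so the arrays form 3 pairs. The labels give neither the part of Nhlh2 that was deleted nor any restriction to a cell type. Nhlh2 encodes a neuronal basic helix-loop-helix factor. No listed probe set carried its symbol, so the arrays give no check of the genotype.

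Atoh7 is a basic helix-loop-helix factor that makes progenitors competent to become ganglion cells. Downstream of it, the POU-domain factor Pou4f2 and the LIM-homeodomain factor Isl1 act together to start ganglion cell differentiation, and Pou4f1 and Ebf factors act later in the same cells. Most mouse ganglion cells are born before birth, and at P4 the remaining progenitors mainly produce rods, bipolar cells and Müller glia. Isl1 is also present in ON bipolar cells and cholinergic amacrine cells, and Ebf1 and Ebf3 in some amacrine cells. In RNA from whole retina, fewer cells of a type and less RNA per cell cannot be told apart.

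Nhlh2 and Atoh7 belong to a class of proteins that bind E-boxes, with the letters CANNTG, and the promoters of the first 2 measured factors are therefore shown for the 250 bases before the start site, with E-boxes in capitals. The Atoh7 stretch is at chr10:63099535-63099784 on the plus strand and the Isl1 stretch at chr13:116309689-116309938 on the minus strand, both from RefSeq on GRCm38.p6.
Atoh7: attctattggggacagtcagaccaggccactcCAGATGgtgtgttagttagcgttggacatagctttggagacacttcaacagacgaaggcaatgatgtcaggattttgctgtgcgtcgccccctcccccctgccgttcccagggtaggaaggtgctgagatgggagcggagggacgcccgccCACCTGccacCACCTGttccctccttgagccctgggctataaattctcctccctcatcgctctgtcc
Isl1: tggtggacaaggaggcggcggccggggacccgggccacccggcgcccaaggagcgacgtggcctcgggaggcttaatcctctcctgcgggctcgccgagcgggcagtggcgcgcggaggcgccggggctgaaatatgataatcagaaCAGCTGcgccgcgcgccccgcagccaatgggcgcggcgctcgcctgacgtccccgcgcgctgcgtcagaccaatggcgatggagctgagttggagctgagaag
The Atoh7 stretch held 3 E-boxes, 1 of the form CAGATG and 2 of the form CACCTG, which begin 218, 67 and 57 bases before the start site. The Isl1 stretch held 1, of the form CAGCTG, which begins 103 bases before it. Of 7 promoters listed for the 6 genes, 2 of them for Ebf1, 4 held an E-box in this window. E-boxes of any form were read on both strands, and they occurred in 66.2% of all 32851 promoters, CAGCTG in 13%, CACCTG in 17.2% and CAGATG in 14.4%. A match in these letters is no evidence of binding.

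Signals are MAS 5.0 intensities scaled here so that each array had a 2% trimmed mean of 500, and each is also given as a percentile among all probe sets of its own array, which no scaling can change. The array of Nhlh2 knockout replicate 2 stood apart. Its median deposited signal was 9.0, against 51.3 to 95.5 in the other 5 arrays. The Actb probe set at the 3′ end gave 274 times the signal of the 5′ one there, against 1.38 to 1.56 times elsewhere. Its scale factor was 19.9, against 1.87 to 2.96. Spearman's rho across probe sets, which are not independent replicates, was 0.642 to 0.669 between it and the others, and 0.947 to 0.975 among the other 5. Fold changes are therefore given with all 6 arrays and without this one.

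Most of the 10 probe sets lay above the median of their array in P4 retina. In the 3 wildtype arrays, 8 of the 10 probe sets were above the array median each time. The exceptions were Atoh7 probe set 1450796_at, below it in all 3 arrays, and Ebf1 probe set 1416302_at, above it in 2 of 3. A probe set was tested when it was above the median in at least 3 of the 6 arrays, and 9 of the 10 were.

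**Figure D1:**
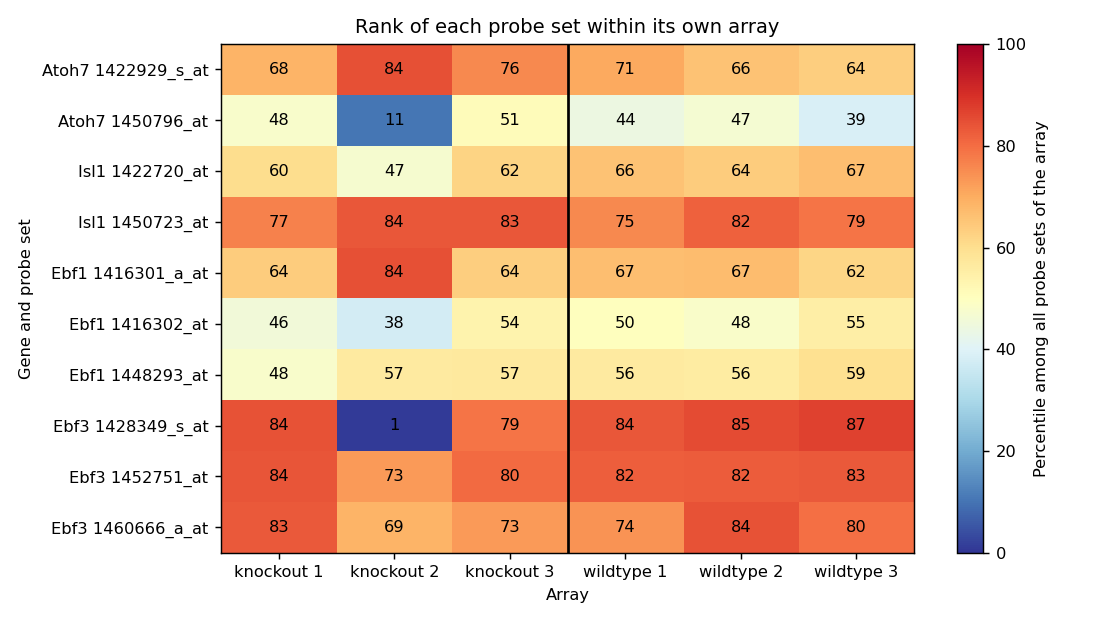
Percentile of the 10 probe sets (rows) among all probe sets of the same array, for the 3 Nhlh2 knockout arrays (left of the line) and the 3 wildtype arrays (right), with colour and number giving the same value. Outside knockout replicate 2 the Ebf3 rows lie at 72.9 or higher, and in that array Ebf3 probe set 1428349_s_at is at 0.99.

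Atoh7, the competence factor, was read by a brighter and a dimmer probe set, and on the brighter one it lay in the upper part of every array. Probe set 1422929_s_at had scaled signals of 445, 796 and 605 in Nhlh2 knockout replicates 1, 2 and 3, and of 492, 399 and 321 in wildtype replicates 1, 2 and 3. The knockout mean was 615 ± 176 and the wildtype mean 404 ± 85.3 (SD, n = 3 each). Knockout replicate 1 lay below wildtype replicate 1, so the groups overlapped. By the array maker's naming the suffix _s_at marks probes that may bind transcripts of more than 1 gene, so part of this signal may come from others. The log2 fold change was 0.59 with a standard error of 0.36 (limma, adjusted p = 0.751), or 0.38 with a standard error of 0.26 without knockout replicate 2 (adjusted p = 0.9996).

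Probe set 1450796_at of Atoh7 was dimmer, with 153, 15.9 and 160 in knockout replicates 1, 2 and 3, against 122, 148 and 80.0 in wildtype replicates 1, 2 and 3. Knockout replicates 1 and 3 were just above all 3 wildtype mice, while knockout replicate 2 was far below every other array. This probe set was outside the filter, and its mean log2 difference was -0.61 with all arrays and 0.47 without knockout replicate 2. The exact permutation test over the 20 splits of the arrays gave p = 1 (two-sided, smallest possible p = 0.10), and over the 10 splits of the 5 other arrays p = 0.20. Within arrays the brighter Atoh7 probe set exceeded the dimmer one by 1.43 to 2.02 on the log2 scale in the 5 other arrays, and by 5.65 in knockout replicate 2.

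Isl1, the LIM-homeodomain factor, gave different pictures on its probe sets. On 1422720_at the knockout signals were 291, 161 and 305 in replicates 1, 2 and 3, and the wildtype signals 391, 365 and 380 in replicates 1, 2 and 3. All 3 knockout mice were below all 3 wildtype mice, and the wildtype values were close together. The means were 252 ± 79.4 in knockout and 379 ± 12.7 in wildtype retinas (SD, n = 3 each), and 298 ± 10.2 in knockout retinas without replicate 2 (n = 2). The log2 fold change of -0.64, with a standard error of 0.35, did not pass the limma test (adjusted p = 0.751). Without knockout replicate 2 it was -0.35, with a standard error of 0.17 (adjusted p = 0.9996), and its 95% interval of -0.76 to 0.07 includes 0.

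The other Isl1 probe set, 1450723_at, had 671, 744 and 936 in knockout replicates 1, 2 and 3, and 627, 892 and 702 in wildtype replicates 1, 2 and 3. Here the groups overlapped throughout. The means were 784 ± 137 in knockout and 740 ± 137 in wildtype retinas (SD, n = 3 each), with a log2 fold change of 0.08 and a standard error of 0.31 (limma, adjusted p = 0.905). It was 0.11 without knockout replicate 2, with a 95% interval of -0.49 to 0.71. The difference between the probe sets can be read within each array, where scaling plays no part. The log2 ratio of 1450723_at over 1422720_at was 1.21, 2.21 and 1.62 in knockout replicates 1, 2 and 3, and 0.68, 1.29 and 0.89 in wildtype replicates 1, 2 and 3. It was higher in the knockout mouse of every pair, but knockout replicate 1 lay below wildtype replicate 2. The groups differed by 0.73 on the log2 scale, which did not pass the exact permutation test (two-sided p = 0.20, adjusted p = 0.60 over 8 pairs of probe sets of the same gene). The difference was 0.46 without knockout replicate 2 (exact p = 0.30). Which stretch of the transcript each probe set reads is not given in the sources used here.

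**Figure D2:**
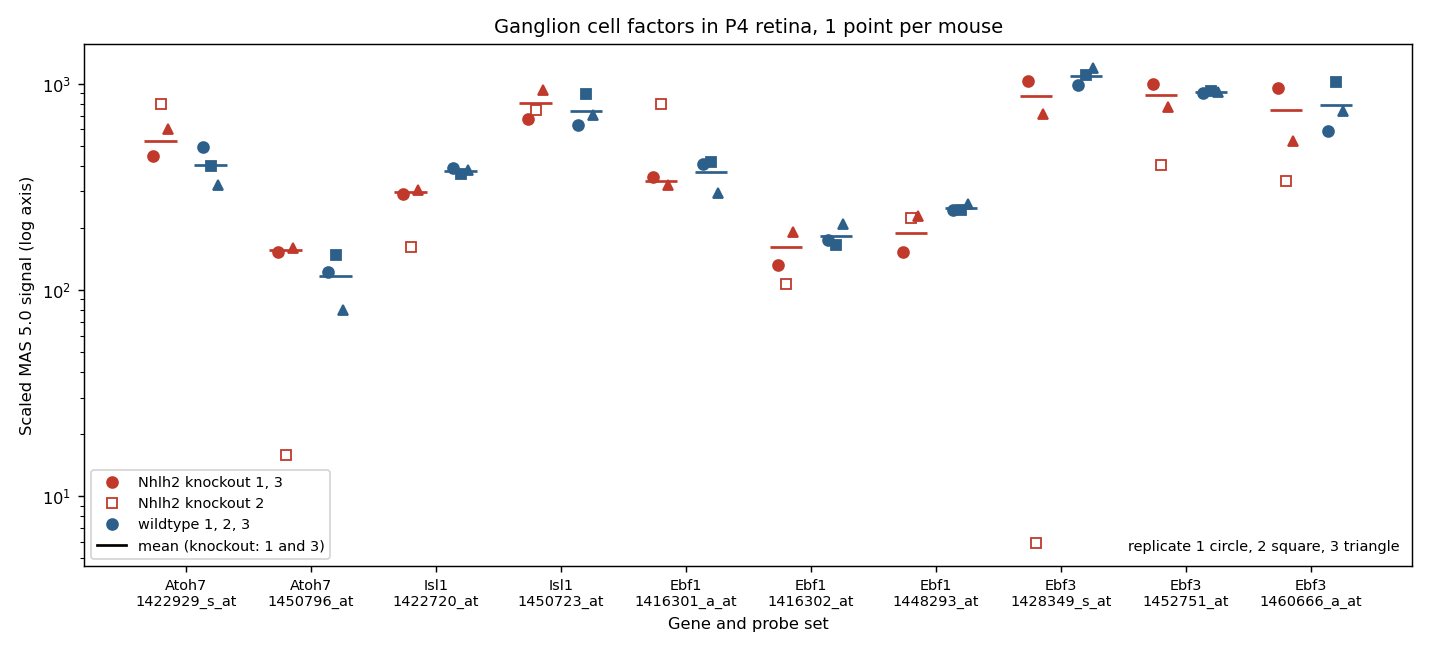
Scaled MAS 5.0 signal (log axis) of the 10 probe sets in 3 Nhlh2 knockout mice (red, left) and 3 wildtype mice (blue, right), 1 point per mouse, with open squares for knockout replicate 2 and bars for means, the knockout bar over replicates 1 and 3. On Isl1 probe set 1422720_at the knockout points lie at 161 to 305 and the wildtype points at 365 to 391, while on 1450723_at they overlap.

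Ebf1 and Ebf3 encode closely related helix-loop-helix factors of the early B-cell factor family. Probes of one may bind transcripts of the other, above all on the _s_at probe set of Ebf3. Ebf1 probe set 1448293_at had 152, 222 and 227 in knockout replicates 1, 2 and 3, against 244, 243 and 261 in wildtype replicates 1, 2 and 3. Every knockout mouse was below every wildtype mouse, and knockout replicate 1 was the lowest. The means were 200.4 ± 42.1 in knockout and 249.5 ± 9.97 in wildtype retinas (SD, n = 3 each). The log2 fold change was -0.34 with a standard error of 0.30 (limma, adjusted p = 0.751), and -0.42 with a standard error of 0.23 without knockout replicate 2 (adjusted p = 0.9996).

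The other Ebf1 probe sets overlapped between the groups. On 1416301_a_at the knockout signals were 351, 796 and 324 in replicates 1, 2 and 3, and the wildtype signals 408, 419 and 295 in replicates 1, 2 and 3. The high value of knockout replicate 2 set the direction: the log2 fold change was 0.28 with all arrays (standard error 0.44, adjusted p = 0.785) and -0.13 without it (standard error 0.22, adjusted p = 0.9996). On 1416302_at the signals were 133, 107 and 192 in knockout replicates 1, 2 and 3, and 174, 164 and 209 in wildtype replicates 1, 2 and 3, near the median of each array. Its log2 fold change was -0.37 with a standard error of 0.34 (adjusted p = 0.751), and -0.18 with a standard error of 0.24 without knockout replicate 2 (adjusted p = 0.9996).

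Ebf3 had signals in the upper part of each array on all 3 probe sets, apart from knockout replicate 2. Probe set 1428349_s_at had 1028, 5.96 and 709 in knockout replicates 1, 2 and 3, against 984, 1098 and 1193 in wildtype replicates 1, 2 and 3. In knockout replicate 2 the deposited signal was 0.3, at percentile 0.99 of that array, while the other Ebf3 probe sets were at percentiles 72.7 and 68.5 there. The log2 fold change of -2.66 had a standard error of 1.86 (limma, adjusted p = 0.751), and without that array it was -0.35 with a standard error of 0.23 (adjusted p = 0.9996). Knockout replicate 3 was then below all wildtype mice and knockout replicate 1 among them.

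Probe set 1452751_at had 992, 401 and 772 in knockout replicates 1, 2 and 3, against 901, 922 and 909 in wildtype replicates 1, 2 and 3, where it varied little. The knockout mice lay on both sides of the wildtype mice. The log2 fold change was -0.43 with a standard error of 0.41 (limma, adjusted p = 0.751). It was -0.06 without knockout replicate 2, and its 95% interval ran from -0.52 to 0.41. The third, 1460666_a_at, had 957, 338 and 526 in knockout replicates 1, 2 and 3, and 589, 1023 and 737 in wildtype replicates 1, 2 and 3. Its spread was wide in both groups, and the log2 fold change was -0.46 with a standard error of 0.47 (limma, adjusted p = 0.751), or -0.10 with a standard error of 0.35 without knockout replicate 2 (adjusted p = 0.9996).

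None of the 9 tested probe sets passed the comparison of knockout with wildtype retinas, and neither did any other probe set. Of the 11610 probe sets tested with all 6 arrays, 0 had an adjusted p below 0.05 (0%), and 12 had an unadjusted p below 0.05 (0.103%), none of them a member. Without knockout replicate 2, 0 of 11324 passed (0%), and 82 had an unadjusted p below 0.05 (0.724%), again with no member. Both shares are smaller than evenly spread p-values would give, so these fits had little power. With 3 arrays a group the number of arrays limits the precision, and with all 6 so does knockout replicate 2. Each of the 9 had a smaller standard error without that array, from 1.86 to 0.23 for Ebf3 1428349_s_at. Intervals that include 0 do not show that the levels were equal.

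The direction of the factors depended on how a gene with several probe sets was counted. With all 6 arrays 6 of the 9 had a log2 fold change below 0, as had 61.6% of all tested probe sets, and the median was -0.37 for the members and -0.18 for all. Without knockout replicate 2, 7 of 9 were below 0, against 51.0% of all, with medians of -0.13 and -0.01. These 7 come from 3 genes, and probe sets of a gene are not independent. By the brightest probe set of each gene, 3 of the 4 measured factors were higher in knockout retinas with all arrays, with a median log2 fold change of 0.18. Over all genes counted in this way, 2863 of 6917 were higher, with a median of -0.13. Leaving out knockout replicate 2, 2 were higher and 2 lower, with a median of -0.01. Over all genes 3568 of 6768 were then higher, with a median of 0.01. Of the 9, 2 had all knockout mice below all wildtype mice with 6 arrays, Isl1 1422720_at and Ebf1 1448293_at, as had 3.54% of all tested. Without knockout replicate 2 the same 2 did not overlap, as was so for 5.46% of all in this direction. In the other direction there were 0 of 9, against 5.33% of all.

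**Figure D3:**
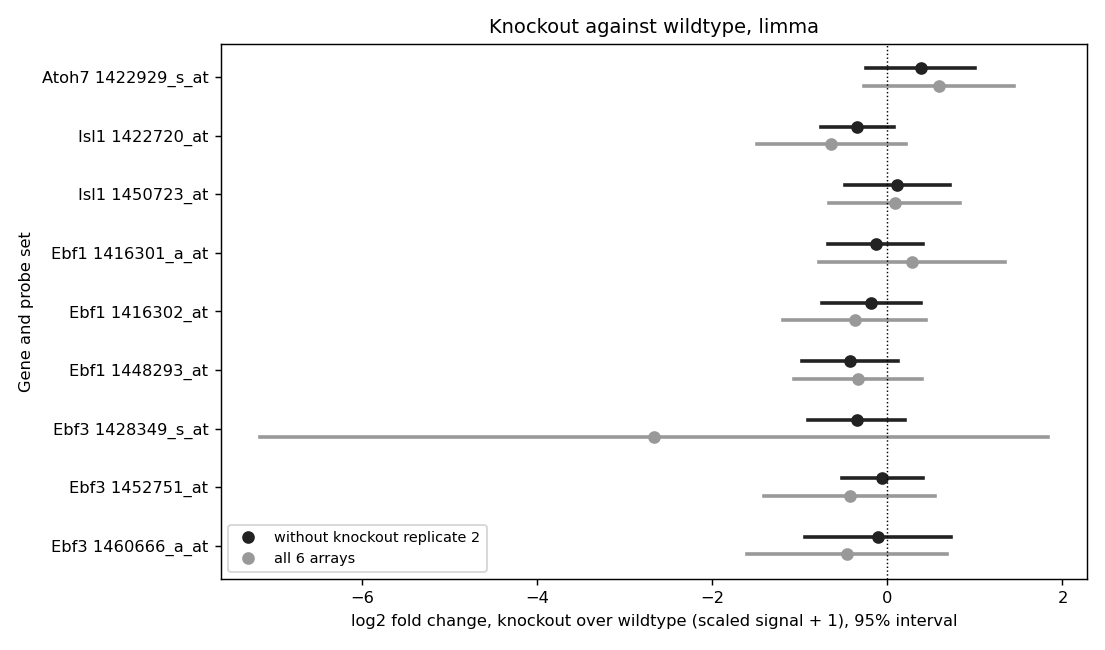
Log2 fold change of knockout over wildtype (horizontal axis) for the 9 tested probe sets, with 95% intervals from limma, without knockout replicate 2 (black) and with all 6 arrays (grey). Every interval includes 0, and that of Ebf3 1428349_s_at with all arrays runs from -7.16 to 1.84.

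Littermates gave a mixed picture. In pair 1, 5 of the 10 probe sets were lower in the knockout pup, as were 49.0% of all tested probe sets, with differences from -0.68 to 0.70 and a median of -0.04 on the log2 scale. In pair 3, 6 of 10 were lower, against 49.5% of all tested, with differences from -0.75 to 0.99 and a median of -0.16. In pair 2, which holds the array that stood apart, 8 of 10 were lower, against 61.2% of all tested, with a median of -0.90, against -0.54 over all tested probe sets of that pair. The differences of Isl1 1422720_at were -0.43, -1.18 and -0.32 in pairs 1, 2 and 3. Those of Ebf1 1448293_at were -0.68, -0.13 and -0.20, and those of Ebf1 1416302_at -0.39, -0.61 and -0.12. How many of all tested probe sets kept 1 sign in all 3 pairs was not counted, so these signs are description only. The brightest probe sets of Isl1 and Ebf1 changed sign between pairs. Isl1 1450723_at differed by 0.10, -0.26 and 0.41, and Ebf1 1416301_a_at by -0.22, 0.93 and 0.13. Atoh7 1422929_s_at differed by -0.15, 0.99 and 0.91 in pairs 1, 2 and 3, with pair 1 in the opposite direction to the others. All 3 Ebf3 probe sets were higher in the knockout pup of pair 1 and lower in that of pair 3.

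**Figure D4:**
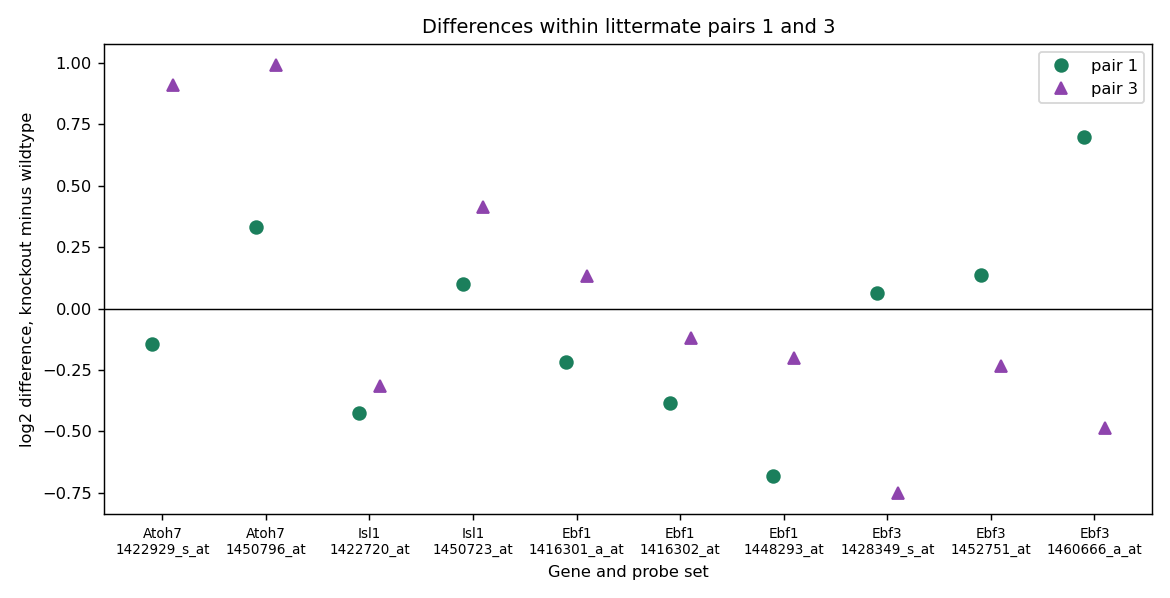
Log2 difference, knockout minus wildtype pup, of the 10 probe sets in littermate pairs 1 (circles) and 3 (triangles); pair 2 is left out of the plot because it reaches -7.30. Atoh7 1422929_s_at, Ebf1 1416301_a_at and the 3 Ebf3 probe sets change sign between the pairs.

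Other genes of ganglion cells were set beside these factors, each by its brightest probe set. Of 30 other ganglion cell transcription factors, 24 had a listed probe set and 12 were tested, of which 0 passed. Without knockout replicate 2, 8 of 12 were lower, with a median log2 fold change of -0.03. Over all genes, each by its brightest probe set, 3200 of 6768 were lower, with a median of 0.01. The brightest were Sox4 and Sox11, SoxC factors of newly born neurons. Sox4 had 14046, 876 and 16580 in knockout replicates 1, 2 and 3, against 15038, 16348 and 24053 in wildtype replicates 1, 2 and 3. Sox11 had 2653, 1022 and 5360 in knockout and 2630, 2335 and 5632 in wildtype replicates. The homeodomain factor Irx6 had 192, 17.9 and 139 in knockout and 187, 209 and 199 in wildtype replicates, with a log2 fold change of -1.32, or -0.28 without knockout replicate 2 (limma, adjusted p = 0.751 and 0.9996). As for Ebf3 1428349_s_at, the low values of Sox4 and Irx6 were those of knockout replicate 2.

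Of 26 ganglion cell marker and effector genes, 22 had a listed probe set and 16 were tested, of which 0 passed, with 8 higher and 8 lower. Their median log2 fold change was -0.01, and -0.02 without knockout replicate 2, with 7 higher and 9 lower. Nefl, the light neurofilament subunit, had 2134, 1757 and 1520 in knockout replicates 1, 2 and 3, against 2408, 2374 and 1935 in wildtype replicates 1, 2 and 3. Ina, another neuronal intermediate filament, had 1924, 5069 and 3054 in knockout and 2470, 1964 and 2599 in wildtype replicates. Stmn2, a microtubule regulator of growing axons, had 2143, 318 and 2356 in knockout and 2377, 1917 and 2124 in wildtype replicates. The low Stmn2 value was again that of knockout replicate 2. The RNA-binding ganglion cell marker Rbpms had 302, 95.3 and 258 in knockout and 336, 282 and 243 in wildtype replicates. The summed scaled signal of the 22 genes was 14728, 17177 and 15392 in knockout replicates 1, 2 and 3, and 14279 to 16056 in wildtype retinas.

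Regulators of Atoh7, set in 1 list with competing progenitor factors, and partners of the factors did not pass either. Of the 10 genes in the list, 8 had a listed probe set and 7 were tested, with 0 past the threshold and medians of -0.19, or 0.11 without knockout replicate 2. Pax6, the eye field factor that activates Atoh7, had 3957, 201 and 3960 in knockout replicates 1, 2 and 3, against 4241, 4226 and 3918 in wildtype replicates 1, 2 and 3. Neurod1, a bHLH factor of photoreceptors and amacrine cells, had 8326, 2327 and 13558 in knockout and 8360, 9505 and 16439 in wildtype replicates. The Notch effector Hes5 had 2876, 12867 and 2621 in knockout and 2881, 3006 and 1183 in wildtype replicates. In each of these genes knockout replicate 2 was the lowest or the highest of the 6 arrays.

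Of 16 partners and inhibitors, 15 had a listed probe set and 14 were tested, with 0 past the threshold. Of the 14, 10 were lower with all arrays and 6 without knockout replicate 2. Over all genes, 4054 of 6917 were lower with all arrays and 3200 of 6768 without it. Among them Tcf4 and Tcf12 are E proteins that pair with bHLH factors such as Atoh7. Tcf4 had 3187, 2781 and 4348 in knockout and 3655, 3688 and 5863 in wildtype replicates. Tcf12 had 2803, 746 and 2242 in knockout replicates 1, 2 and 3, against 2881, 3230 and 3684 in wildtype replicates 1, 2 and 3. Every knockout mouse was below every wildtype mouse, as was so for 3.54% of all tested probe sets. The log2 fold change was -0.96, or -0.37 with a standard error of 0.21 without knockout replicate 2 (limma, adjusted p = 0.9996). Ldb2, a cofactor that binds LIM-homeodomain proteins such as Isl1, had 322, 55.6 and 214 in knockout and 504, 437 and 302 in wildtype replicates, where knockout replicate 1 lay above wildtype replicate 3. Its log2 fold change was -1.36, and -0.63 with a standard error of 0.30 without knockout replicate 2 (adjusted p = 0.9996). The LIM-only protein Lmo4 had 572, 15.9 and 637 in knockout and 556, 642 and 450 in wildtype replicates. Nhlh1, the paralog of Nhlh2, was looked up after the values were seen. It had 198, 582 and 186 in knockout and 125, 123 and 181 in wildtype replicates, with a log2 fold change of 0.98, or 0.44 with a standard error of 0.23 without knockout replicate 2 (adjusted p = 0.9996).

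**Figure D5:**
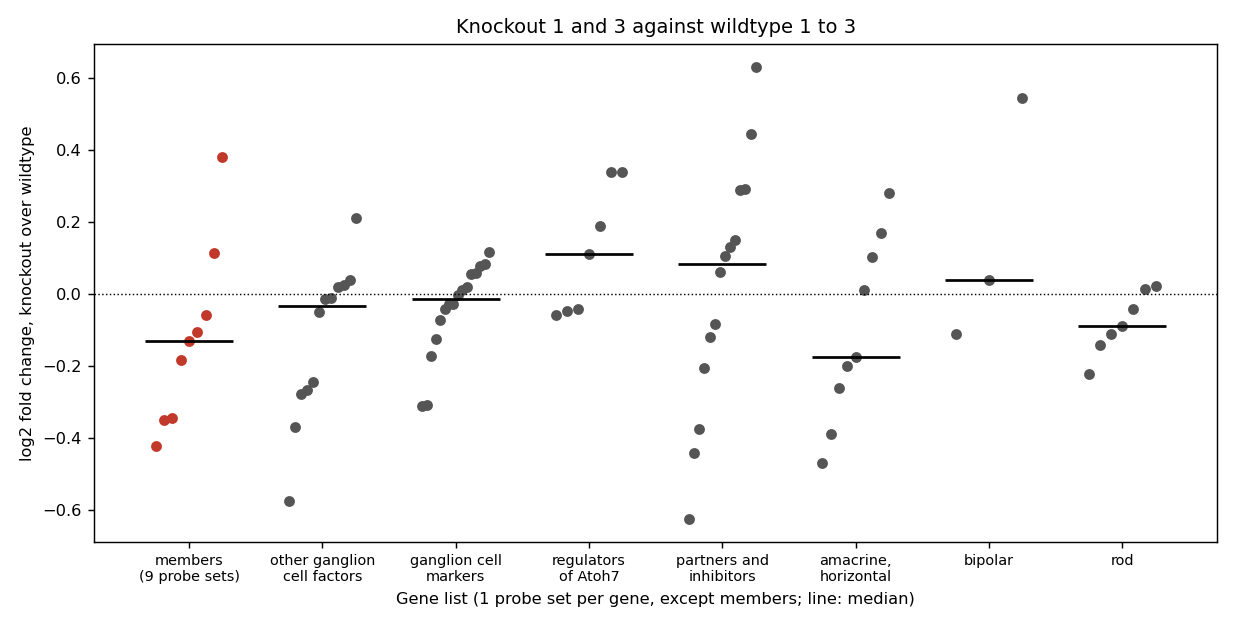
Log2 fold change of knockout replicates 1 and 3 over the 3 wildtype mice for the 9 member probe sets (red) and for the tested genes of other lists (grey, 1 probe set per gene), with the median of each as a line. The members' median is -0.13 over probe sets and -0.01 by the brightest probe set of each gene, that of the other ganglion cell factors is -0.03, and no point passed the test.

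Markers of amacrine and bipolar cells, some of which share Isl1 or the Ebf factors, were read in the same arrays, with rod markers and lens genes beside them. Of 14 amacrine and horizontal cell markers 12 had a listed probe set and 9 were above the median in all wildtype mice, but of those particular to cholinergic amacrine cells, Chat had none listed, and Slc18a3 and Slc5a7 were below the median in all 3. The summed scaled signal of this list was 7209, 10185 and 7901 in knockout replicates 1, 2 and 3, and 7566 to 8734 in wildtype retinas. Gad1, which makes GABA in amacrine and horizontal cells, had 1212, 987 and 1001 in knockout replicates 1, 2 and 3, against 1371, 1693 and 1529 in wildtype replicates 1, 2 and 3. Like Isl1 1422720_at and Ebf1 1448293_at it was lower in every knockout mouse than in every wildtype mouse. This was so for 3.54% of all tested probe sets. Its log2 fold change was -0.52, or -0.47 without knockout replicate 2 (limma, adjusted p = 0.751 and 0.9996). Of the 9 tested markers of this list, 4 were higher and 5 lower, both with all arrays and without knockout replicate 2. Tfap2a had a log2 fold change of 0.41 and Prox1 of -1.02, or 0.17 and -0.39 without that array. Of 10 bipolar cell markers 8 had a listed probe set and 2 were above the median in all wildtype mice, Otx2 and Pcp2. This list summed to 9003, 5364 and 8396 in knockout replicates 1, 2 and 3. In wildtype replicates 1, 2 and 3 it summed to 8750, 10500 and 8275. Otx2 alone had 7685, 9654 and 7183 there, so the sum mostly reads this 1 gene. Rod markers summed to 32998, 65630 and 37410 in knockout replicates 1, 2 and 3, and to 29830 to 47674 in wildtype retinas. Of the 8 with a listed probe set, 7 were above the median in all wildtype mice. Lens genes, mainly crystallins, summed to 334, 1537 and 531 in knockout replicates 1, 2 and 3. Their sum was 22486 in wildtype replicate 1 but 384 and 511 in wildtype replicates 2 and 3. The part of these cells in the factors' values was not tested.

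The genes whose levels ran most like each factor over the 5 arrays other than knockout replicate 2 were sought among 6931 genes. Pard6g had a Pearson's r of 0.998 with Atoh7 1422929_s_at, and Eny2 0.997. Spire2 and 1110032A03Rik had 0.992 each with Isl1 1450723_at. Celf4 had 0.998 and Cnot4 0.997 with Ebf1 1416301_a_at, and Mdm4 had 0.999 and Acadm 0.998 with Ebf3 1428349_s_at. With 5 points such values are common: 30 to 130 genes had r above 0.95 with a given factor. With all 6 arrays r became -0.45 for Eny2 and -0.49 for Cnot4, and stayed at 0.987 for Mdm4 and 0.996 for Acadm, whose signals in knockout replicate 2 were also low.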

How the data were processed

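RNA from the retinas of 3 Nhlh2 knockout and 3 wildtype P4 mice was hybridised to Affymetrix mouse GeneChip arrays. The authors deposited linear intensity values from the MAS 5.0 algorithm, 1 for each probe set of an array. The deposited signals were not on a common level, so each array was scaled to a 2% trimmed mean of 500 over its 22626 probe sets, leaving out 64 controls. Where the values are in log2, a constant of 1 was added. Gene symbols came from the platform annotation, where 20380 probe sets had a single symbol, 691 had more than 1 and 1555 were not listed. Checked against RefSeq of GRCm38.p6, 0 symbols changed.

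Knockout and wildtype were compared with limma 3.58.1 in R 4.3.3 (lmFit and eBayes), on 11610 probe sets above the array median in at least 3 of 6 arrays, with Benjamini-Hochberg adjustment over all of them and a threshold of 0.05. Littermate pairs were a block in an alternative fit only. The series design states the litters. The correlation of same-numbered arrays, after removal of group means, was 0.287, -0.141 and 0.175 for pairs 1, 2 and 3, and -0.423 to 0.375 for arrays of different numbers. Without knockout replicate 2 it was 0.493 and 0.724 for pairs 1 and 3, and -0.724 to 0.641 for different numbers. With 2 knockout arrays their deviations are mirror images, so these values are not independent and do not settle how alike littermates were. The fit was tested on simulated data. Members and lists were chosen with earlier results of these data known. Genes named from the ganglion cell, regulator and partner lists were, unless said otherwise, the 2 brightest in wildtype. The 2 tested genes of a list with the largest absolute log2 fold change were added. Gad1, Tfap2a and Prox1 were named from the amacrine list by the same rule. From the array came the 2 genes most like each factor's brightest probe set. Alternatives covered scaling, constant, filter, pairing, variance model, array weights and leaving out arrays. No raw files or present calls were used here.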

Additional observations from a re-analysis of the deposited data

How the results depend on the processing

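Under none of the 18 alternatives did any probe set pass the adjusted threshold (0 calls with limma in each, also when any single array was left out). With the littermate pair as a replicate block on all 6 arrays there were 0 calls. There, 13 probe sets had an unadjusted p below 0.05, against 12 without the block, and it changed no call of a member. In pairs 1 and 3 only, the block fit also gave 0 calls. Of its 10863 probe sets, 173 were higher and 193 lower at an unadjusted p below 0.05. The unpaired fit without knockout replicate 2 had 32 higher and 50 lower of 11324. No member was among them, and the smallest member p in pairs 1 and 3 was 0.060 (limma, Ebf1 1448293_at). Direction was the same under all alternatives that gave a value for 5 of the 9 tested factor probe sets. These were Isl1 1422720_at, both dimmer Ebf1 probe sets, and Ebf3 1428349_s_at and 1452751_at, all negative. The replicate block on all 6 arrays, the intensity trend and the filters cannot change the estimate. With the signals as deposited, 99.2% of all tested probe sets were below 0. These alternatives therefore could hardly reverse a negative direction. With the signals as deposited, where the median of all tested probe sets was -1.38, the log2 fold changes of Atoh7 1422929_s_at, Isl1 1450723_at and Ebf1 1416301_a_at were -0.63, -1.13 and -0.94. Ebf1 1416301_a_at was also negative with array weights (-0.25), with quantile normalization without knockout replicate 2 (-0.10) and in pairs 1 and 3 with the replicate block (-0.042), where Ebf3 1460666_a_at was 0.11. Leaving out 1 array at a time gave -0.051 to 0.23 for Isl1 1450723_at, negative without knockout replicate 3 (-0.051) or wildtype replicate 1 (-0.028), -0.13 to 0.52 for Ebf1 1416301_a_at, and -1.16 to 0.47 for Atoh7 1450796_at, which was 0.52 with quantile normalization without knockout replicate 2. Ebf3 1428349_s_at ranged from -3.95 to -0.35. The cause of these shifts was not tested, beyond the array left out. The stricter filter left out members that were not above the median in all 6 arrays, and gave no value for them. Ebf1 1416302_at, above the median in 3 arrays, also had no value without knockout replicate 3, wildtype replicate 1 or wildtype replicate 3. It was outside the filter there. All 10 wildtype percentiles moved by less than 1 SD when only probe sets with 1 gene symbol were ranked. The number of arrays limits the precision of every value.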
